A study of Mus musculus with 6 samples.

Results

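Genes that mark the endothelium of the lung capillaries and venules were followed in mouse lung 14 days after bleomycin. The set was chosen by name, for the vessel type each gene marks, and holds 10 of the 12393 genes read on the arrays. Pecam1, Cdh5 and Clec14a mark endothelium of any kind, Car4, Kit and Plvap mark lung capillaries, and Vwf, Ackr1, Selp and Vcam1 mark venules and veins or are induced on them. All 10 were measured. Each gene was read by its brightest probe set, the group of short array probes designed against a transcript, and the other probe sets of the same gene are given beside it.

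The mice were wildtype male C57BL/6J animals of 8 to 10 weeks. They received saline (arrays A, B and C) or bleomycin at 1 mg/kg in 50 µl of saline (arrays D, E and F), with 3 mice a group and 1 array a mouse, and lungs were taken at day 14. Bleomycin is a DNA-damaging drug whose delivery to the airways is a common model of lung fibrosis. The series' design text gives oropharyngeal delivery while the sample labels say intratracheal, and the files do not decide between these. Trachea and major airways were removed before RNA was extracted from the pulverised lobes. In such bulk tissue, fewer cells of a type and less RNA per cell cannot be told apart.

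The pulmonary capillary bed is built from flat, Car4-bearing endothelial cells that face the air space, called aerocytes, and from general capillary cells that carry Kit and the diaphragm protein Plvap. In most organs leukocytes leave the circulation through venules, where endothelium stores von Willebrand factor and P-selectin in Weibel-Palade bodies, displays chemokines through the atypical receptor Ackr1 and, when activated, raises Vcam1. Ets, Gata and Klf transcription factors are central to endothelial gene expression.

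The arrays were alike in scale, with medians between 7.37 and 7.41 on the log2 scale. Correlations across probe sets were 0.986 to 0.995 within groups and 0.965 to 0.985 between them. Bleomycin D stood apart from the other treated arrays on the first principal component (44.3, against 12.9 and 19.8). Saline B had Xist at 11.40, against 7.23 to 7.88 elsewhere, and the Y-linked Eif2s3y at 4.05, against 7.23 to 8.02, which goes against its male label. The labelled tissue was borne out by lung genes: surfactant gene Sftpc stood at 14.36 and club cell gene Scgb1a1 at 14.31 in saline. The 10 endothelial genes lay between the 60.8 and the 98.4 percentile of mean level over all probe sets. Levels of different probe sets are not comparable with each other. Comparisons below therefore rest on differences between arrays within probe sets, or on sums over the same probe sets. Such sums, used below for cell types, are weighted toward the brightest probe sets.

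Clec14a fell and Ackr1 rose after bleomycin, and these were the 2 of the 10 genes that passed an adjusted p of 0.05 in limma. Over all genes 5.60% passed, 3.70% higher and 1.90% lower. The RefSeq promoters of these 2 genes are shown because they are the members that changed. Each is the stretch of 250 bases before the transcription start in GRCm38.p6, on the minus strand, and capitals mark matches to short motifs searched on both strands. Clec14a lies at chr12:58269259-58269508 and Ackr1 at chr1:173333504-173333753.
Clec14a: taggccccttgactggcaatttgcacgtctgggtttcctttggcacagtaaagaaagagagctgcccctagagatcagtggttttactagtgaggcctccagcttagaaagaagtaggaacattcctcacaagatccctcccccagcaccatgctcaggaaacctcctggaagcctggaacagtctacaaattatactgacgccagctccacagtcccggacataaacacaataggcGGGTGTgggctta
Ackr1: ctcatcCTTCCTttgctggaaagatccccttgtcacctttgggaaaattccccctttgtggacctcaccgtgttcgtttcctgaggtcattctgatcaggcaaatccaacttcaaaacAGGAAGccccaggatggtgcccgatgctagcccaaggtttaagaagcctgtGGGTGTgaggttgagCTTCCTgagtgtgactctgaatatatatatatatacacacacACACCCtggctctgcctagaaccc

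Ets factors were searched with the letters AGGAAG. The letters used for Gata factors were AGATAA. For Klf factors they were ACACCC, and the TATA box was written as TATAAA. The NF-kappaB consensus was the fifth motif, and no printed matches overlap. The Clec14a stretch held 1 Klf match, 13 to 8 bases before the start, and no match to the others. The Ackr1 stretch held 3 Ets matches, of which the nearest lay 66 to 61 bases before the start, and 2 Klf matches. A Gata match of Ackr1, TTATCT, lay outside the printed stretch, 26 to 31 bases after the start. Of 32851 mouse promoters, 29.5% held the Ets letters and 13.9% the Klf letters in a stretch of this length. The share was 9.99% for Gata, 7.25% for NF-kappaB and 12.4% for TATA. A match is a description of the sequence and shows no binding. The table held promoters for 5 of the 10 genes, Ackr1, Car4, Clec14a, Kit and Selp.

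Clec14a encodes a C-type lectin of endothelial junctions and sprouts. Its log2 values were 10.76, 10.89 and 10.58 in the saline lungs and 9.72, 9.48 and 10.02 after bleomycin. Every bleomycin array lay below every saline array, with a gap of 0.56. The mean went from 10.74 ± 0.16 (SD, n = 3) to 9.74 ± 0.27, a difference of -1.01 (SE 0.16, 95% interval -1.36 to -0.65), or 2.01-fold lower, with an adjusted p of 0.0122 in limma. The other Clec14a probe set read 9.03, 9.37 and 9.10 against 7.31, 8.33 and 8.09, again with no overlap. It was 2.39-fold lower, with an adjusted p of 0.0272. With saline A left out the difference moved by less than its SE, but the adjusted p was then 0.0617.

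Among the members, the other pan-endothelial genes, Pecam1 and Cdh5, showed no such separation. Pecam1, the platelet endothelial adhesion molecule of cell junctions, read 10.08, 9.39 and 9.67 in saline and 9.57, 9.55 and 9.64 after bleomycin. All 3 bleomycin values lay inside the saline range. The difference was -0.13 (SE 0.17, interval -0.51 to 0.26, adjusted p of 0.708 in limma). Cdh5, the VE-cadherin of adherens junctions, read 9.82, 9.04 and 9.59 against 8.92, 9.20 and 9.31. The groups overlapped through saline B, and the difference was -0.34 (SE 0.20, interval -0.80 to 0.12, adjusted p 0.377). Its other probe set differed by -0.10 (adjusted p 0.868). The saline lungs alone spread over 0.35 and 0.40 (SD) for these genes, and a fall as large as that of Clec14a lies outside both intervals.

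**Figure D1:**
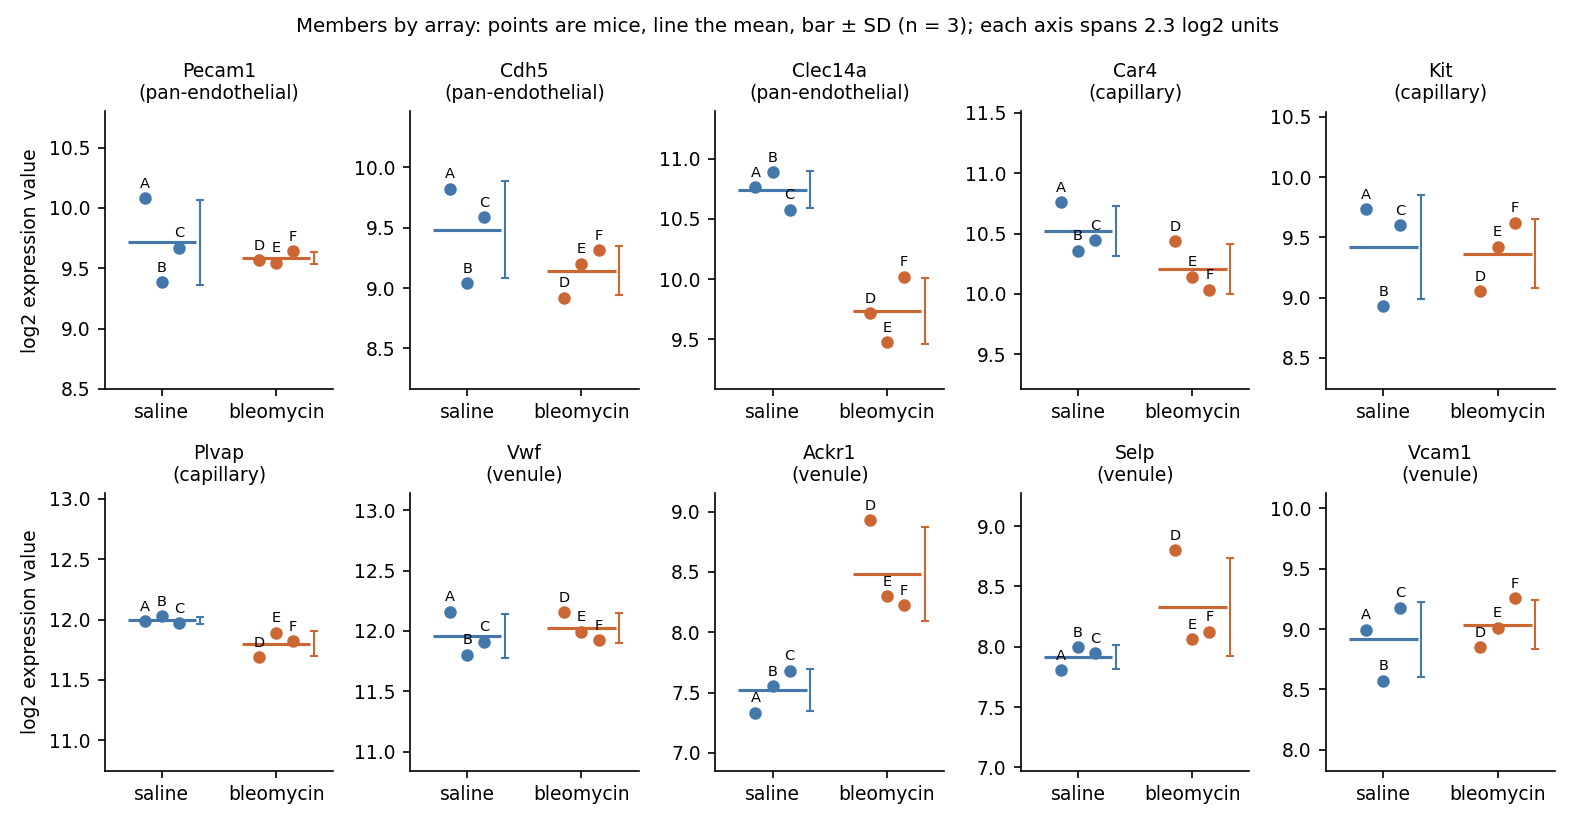
Log2 expression of the 10 genes on each array (vertical axis; every panel spans the same number of log2 units), with a point per mouse, a line at the group mean and a bar for ± SD (n = 3). Clec14a and Ackr1 separate clearly in opposite directions, Plvap and Selp separate by less than 0.1, and the other 6 genes overlap between groups.

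None of the 3 capillary genes passed the test in limma, and 0 had an unadjusted p under 0.05. Car4, the membrane carbonic anhydrase of aerocytes, read 10.76, 10.36 and 10.45 in saline and 10.44, 10.14 and 10.03 after bleomycin. Bleomycin D lay among the saline arrays and the other bleomycin arrays below them. The difference was -0.32 (SE 0.15, interval -0.66 to 0.03, adjusted p 0.271), and the other Car4 probe set differed by -0.26 (adjusted p 0.370).

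Kit, the receptor of stem cell factor, read 9.74, 8.93 and 9.60 in saline and 9.05, 9.42 and 9.62 after bleomycin. The groups overlapped almost wholly, with saline B the lowest array of all. The difference was -0.05 (SE 0.23, interval -0.57 to 0.46, adjusted p 0.914), and the second Kit probe set had the other sign, at 0.17 (adjusted p 0.645). Kit is also carried by mast cells. Of 10 mast cell genes 0 passed the test in limma in either direction and 1 was lower at an unadjusted p under 0.05. Cpa3, the mast cell carboxypeptidase, read 6.32 in saline and 6.01 after bleomycin (adjusted p 0.207). The summed mast cell level, the log2 of the sum of linear values, was 10.15 to 10.57 in saline and 10.14 to 10.81 after bleomycin. Hdc, by far the brightest of the 10 genes (9.66 in saline, 9.79 after bleomycin), made the largest part of this sum.

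Plvap, which forms the diaphragms of endothelial caveolae and fenestrae, was the tightest of the 10 genes in saline, at 11.99, 12.03 and 11.97. After bleomycin it read 11.69, 11.89 and 11.82. All bleomycin arrays lay below all saline arrays, but by a gap of only 0.08, and the difference of -0.20 (SE 0.10, interval -0.43 to 0.04) did not pass (adjusted p 0.323). Over all genes 27.9% had groups that did not overlap. Among the 10 members there were 4, Clec14a and Plvap below and Ackr1 and Selp above.

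The ligand of Kit, Kitl, fell. It read 12.10, 12.18 and 12.06 in saline and 11.01, 11.54 and 11.41 after bleomycin, with no overlap. The difference was -0.79 (SE 0.15), or 1.73-fold lower, with an adjusted p of 0.0235 in limma. All 3 other Kitl probe sets were lower too, by -1.04, -0.49 and -0.82, and none of these passed. The adjusted p of Kitl was 0.0822, 0.0654, 0.0627 and 0.0660 without saline A, B, C and bleomycin F in turn, 0.0657 when its probe sets were averaged and 0.182 for its most variable probe set. Among 8 measured genes of Kit signalling, which include the adaptors Grb2 and Gab2, Kitl was the 1 that passed by its brightest probe set, and the median difference was -0.08. Other probe sets of Grb2 (0.72, adjusted p 0.0236) and of the phosphatase Ptpn6 (0.68, adjusted p 0.0410) were higher and passed. The brightest probe sets of Grb2 (0.18, adjusted p 0.593) and Ptpn6 (0.07, adjusted p 0.800) did not.

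Ackr1 rose. Also known as the Duffy antigen receptor, it binds chemokines without signalling and carries them across venular endothelium. Its values were 7.33, 7.55 and 7.68 in saline and 8.93, 8.30 and 8.22 after bleomycin. Every bleomycin array lay above every saline array, by a gap of 0.54, and bleomycin D was the highest. The mean went from 7.52 ± 0.18 to 8.48 ± 0.39 (SD, n = 3), a difference of 0.96 (SE 0.19, interval 0.52 to 1.40), or 1.95-fold higher with an interval of 1.43 to 2.64, and an adjusted p of 0.0310 in limma. The call did not hold without saline A (0.87, adjusted p 0.103), saline B (0.98, 0.0707), saline C (1.04, 0.0626) or bleomycin F (1.09, 0.0504). It held without bleomycin D, at 0.74 and an adjusted p of 0.0356, and without bleomycin E. Ackr1 is also carried by red cell precursors. None of the 5 measured erythroid genes passed in limma in either direction, and 0 had an unadjusted p under 0.05. The summed erythroid level was 8.92 to 9.30 in saline and 8.89 to 9.11 after bleomycin. Alas2, by far the brightest of the 5 (8.35 in saline, 8.29 after bleomycin), made the largest part of this sum. Slc4a1, the red cell anion exchanger, differed by -0.18 (adjusted p 0.507).

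Selp, the P-selectin that slows rolling leukocytes, read 7.81, 8.00 and 7.95 in saline and 8.80, 8.06 and 8.13 after bleomycin. The groups were separated by only 0.07, and bleomycin D stood well above the other treated arrays. The difference was 0.41 (SE 0.19, interval -0.02 to 0.85, adjusted p 0.260), and without bleomycin D it was 0.18. The second Selp probe set read 6.03, 6.00 and 6.03 against 6.58, 6.31 and 6.29. Its groups did not overlap either, and it did not pass (0.38, SE 0.12, adjusted p 0.108).

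Vwf, which encodes von Willebrand factor, did not separate. It read 12.16, 11.80 and 11.91 in saline and 12.16, 11.99 and 11.92 after bleomycin. The difference was 0.07 (SE 0.13, interval -0.23 to 0.36, adjusted p 0.808), and a change as large as that of Ackr1 lies outside this interval. Vcam1, the ligand of leukocyte integrins containing Itga4, read 8.99, 8.57 and 9.18 against 8.85, 9.01 and 9.26. It differed by 0.12 (SE 0.18, adjusted p 0.728). Of its other 2 probe sets, the first read 8.19, 8.19 and 8.11 against 8.55, 8.29 and 8.56, without overlap (0.30, SE 0.11, adjusted p 0.173), and the second differed by 0.01 (adjusted p 0.969). The 3 Vcam1 probe sets therefore did not give the same separation, and none of them passed.

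Platelets and their precursors also hold Vwf, Selp and Pecam1. Platelet genes were lower after bleomycin: 3 of 10 fell and 0 rose, with a median of -0.33 against -0.04 over all genes. All 10 differences were below 0, as were 7060 of 12393 over all genes. At an unadjusted p under 0.05 in limma, 7 were lower and 0 higher. The share of all genes at this threshold was not counted. Clec1b, the podoplanin receptor, read 8.66, 8.98 and 9.03 in saline and 6.79, 7.63 and 8.15 after bleomycin (-1.37, adjusted p 0.0401). Gp5, a subunit of the platelet von Willebrand factor receptor, differed by -0.58 (adjusted p 0.0367) and Nrgn by -0.57 (adjusted p 0.0308). Gp1bb did not pass by its brightest probe set (-0.22, adjusted p 0.339). The other Gp1bb probe set was lower and passed (-0.66, adjusted p 0.0136). The summed platelet level was 11.52 to 11.87 in saline and 11.04 to 11.26 after bleomycin. The count of 3 became 0 without saline A, saline C or bleomycin E, and 1 without bleomycin D, bleomycin F or saline B. The part of platelet RNA in the Vwf, Selp and Pecam1 values was not tested.

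**Figure D2:**
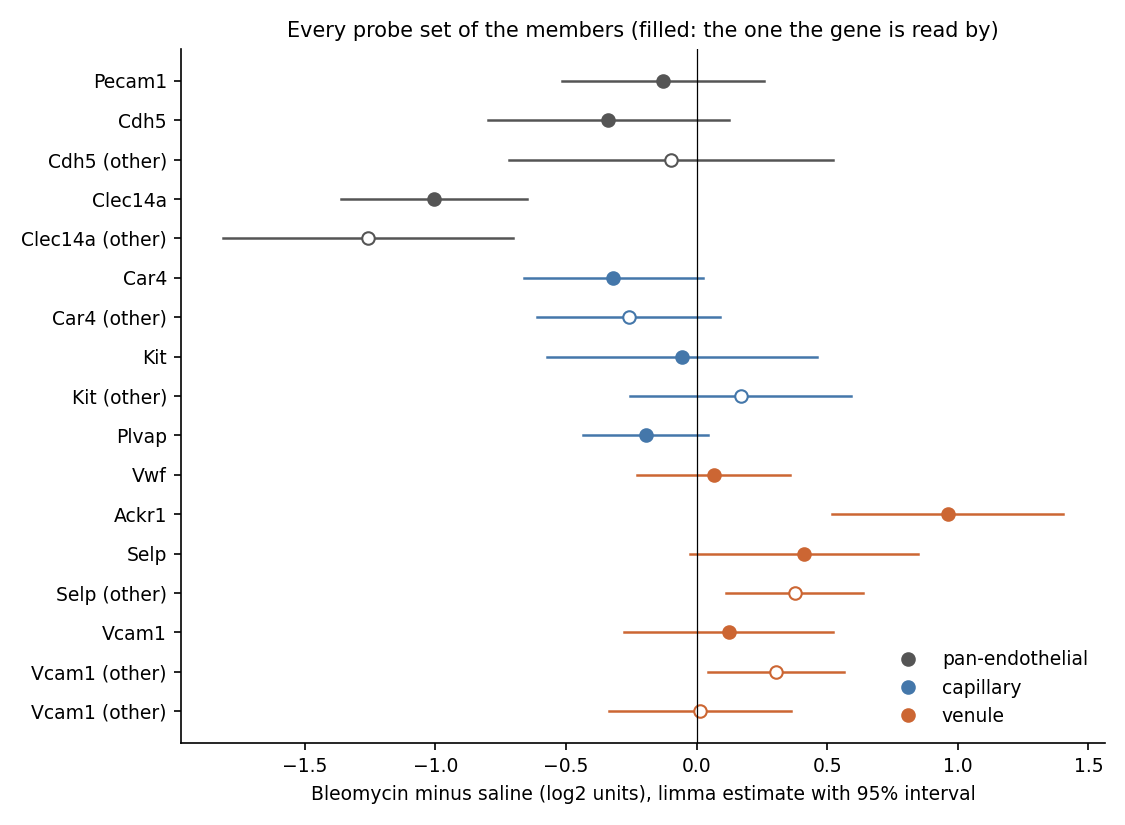
Bleomycin minus saline in log2 units for all 17 probe sets of the 10 genes (limma estimate with its 95% interval; filled points are the probe set by which a gene is read, open points the others). The 2 Clec14a probe sets and Ackr1 lie farthest from 0, and the 2 Kit probe sets lie on opposite sides of it.

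Over the 10 genes, 1 rose, 1 fell and 8 did not pass, with adjusted p values from 0.260 to 0.914. The median difference was -0.09, against -0.04 over all genes. The 5th and 95th percentiles of all genes were -0.46 and 0.57. Of the 17 probe sets 3 passed, the 2 of Clec14a and that of Ackr1, as did 1072 of all 22626. Groups did not overlap for 7 of the 17, some of which belong to the same gene, against 27.9% of all genes. That share was not counted over all probe sets. All 3 capillary genes had a difference below 0 (median -0.20) and all 4 venule genes a difference above 0 (median 0.27). Of all 12393 genes, 7060 had a difference below 0 and 5333 above 0. Saline B was the lowest saline array for 6 of the 10 genes, Pecam1, Cdh5, Car4, Kit, Vwf and Vcam1, and saline A was the highest for 5.

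The capillary and venule genes were then set against each other within each array, which removes any shift shared by both. The gap is the median of the 4 venule genes minus the median of the 3 capillary genes, each gene counted from its saline mean. It was -0.25, 0.10 and 0.12 in saline and 0.85, 0.22 and 0.45 after bleomycin. All bleomycin arrays lay above all saline arrays, with D the highest and E only 0.10 above saline C. The mean gap went from -0.01 ± 0.21 to 0.51 ± 0.32 (SD, n = 3). After bleomycin it was 0.34 without array D, and 0.36 without Ackr1 among the venule genes. With means in place of medians the arrays read -0.19, 0.11 and 0.08 against 0.86, 0.42 and 0.46. The difference between the capillary and venule genes was not tested.

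The same genes were also read relative to 21 other pan-endothelial genes. The mean of those 21 genes was lower in every bleomycin lung, at 0.15, 0.00 and -0.15 in saline and -0.42, -0.44 and -0.29 after bleomycin, a difference of -0.38. On this scale 49.0% of all genes had every bleomycin array above every saline array, because the reference itself was lower, and 0.984% had every bleomycin array below. Relative to it Ackr1 stood at 1.34, Selp at 0.79 and Vwf at 0.45, each above without overlap, as were 49.0% of all genes. For Vwf the separation comes from the reference, since its own values overlapped. Clec14a stood at -0.62, below without overlap. The other 6 genes overlapped, with relative differences of 0.25 for Pecam1, 0.04 for Cdh5, 0.06 for Car4, 0.33 for Kit, 0.19 for Plvap and 0.51 for Vcam1. These relative values are descriptions and were not tested.

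**Figure D3:**
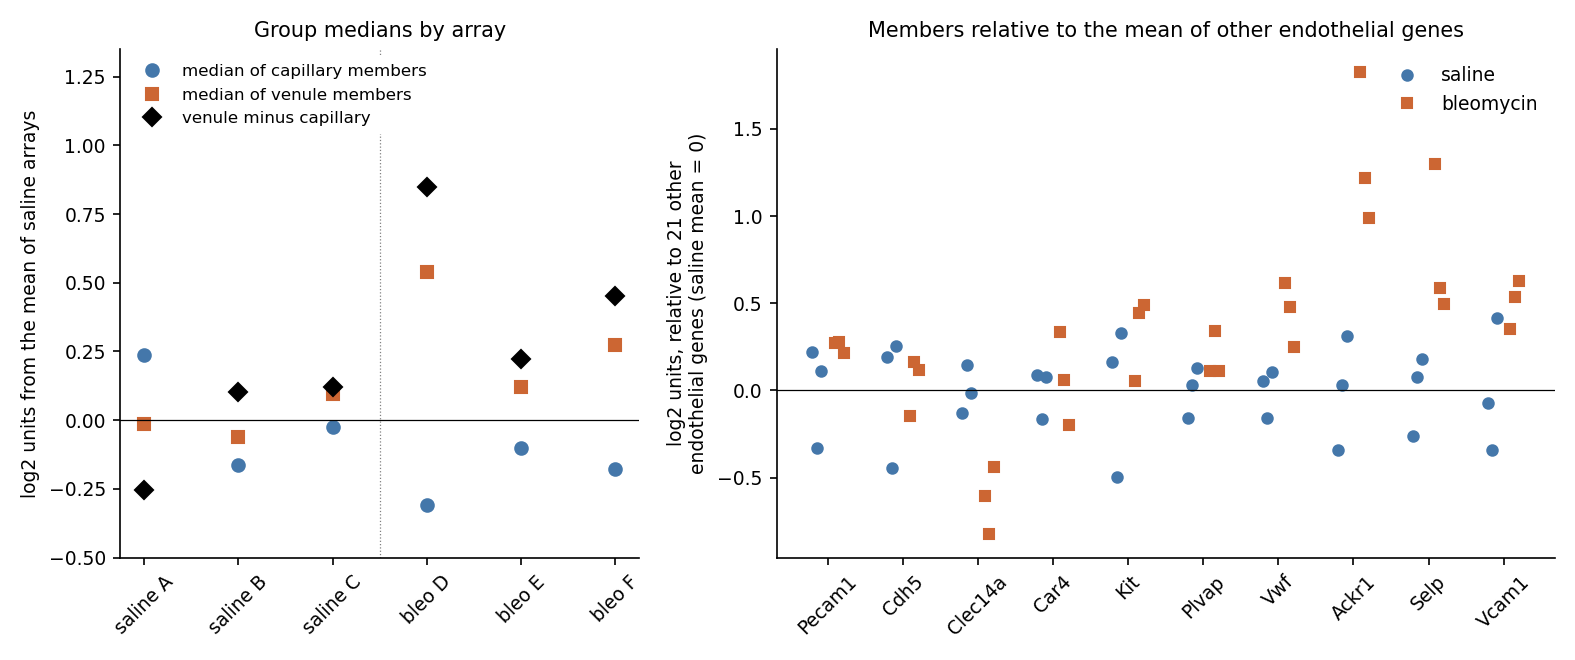
Left, the median of the capillary genes, the median of the venule genes and their difference on each array, in log2 units from the saline mean. Right, each of the 10 genes relative to the mean of 21 other pan-endothelial genes, a point per array; the bleomycin arrays lie above the saline arrays for Vwf, Ackr1 and Selp, as for 49.0% of all genes on this scale, and below them for Clec14a.

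The wider endothelial program was lower on balance. Of 24 pan-endothelial genes measured, 7 fell and 0 rose, and the median was -0.41 against -0.04 over all genes. Differences were below 0 for 20 of the 24, against 7060 of 12393 over all genes. Clec14a had the largest fall, followed by Ramp2 (-0.87, adjusted p 0.0120), which escorts adrenomedullin receptors, Kdr (-0.86, 0.0148), the main VEGF receptor, and Tmem100 (-0.84, 0.0280), a target of BMP signalling in endothelium. The other 3 were Ptprb, Flt1 and Adgrl4. Ramp2 read 12.40, 12.36 and 12.09 in saline and 11.56, 11.23 and 11.45 after bleomycin. The count of 7 became 0 without saline A, 4 without saline C, bleomycin D or bleomycin E, and 5 without saline B or bleomycin F. At an unadjusted p under 0.05 in limma, 14 of the 24 were lower and 0 higher. The share of all genes at that threshold was not counted. The 4 differences above 0 were all among the 17 genes that did not pass. The largest of these were the sialomucins Cd34, at 0.33, and Emcn, at 0.26. Eng did not pass by its brightest probe set (-0.45, adjusted p 0.149). The other Eng probe set was lower and passed (-0.97, adjusted p 0.00213).

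Other aerocyte genes had larger differences than Car4, in the same direction. Of 10 measured, 3 fell and 0 rose, with a median of -0.67. All 10 differences were below 0, against 7060 of 12393 over all genes. At an unadjusted p under 0.05 in limma, 8 were lower and 0 higher, again without a count over all genes. Fibin read 10.09, 10.00 and 9.64 in saline and 8.38, 8.73 and 8.96 after bleomycin (-1.22, SE 0.18, 2.33-fold lower, adjusted p 0.00923). Ednrb, the endothelin receptor that marks aerocytes, read 8.41, 8.61 and 8.02 against 7.01, 7.31 and 7.31 (-1.14, SE 0.17, 2.20-fold lower, adjusted p 0.00983). Kdr was the third. Car4, at -0.32, had the smallest difference of the 10. Without saline A 0 of the 10 passed, with adjusted p values of 0.0563 for Fibin and 0.0581 for Ednrb.

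Genes of general capillary cells went both ways. Of 10 measured, 2 fell and 1 rose, with a median of -0.07. Ptprb, the phosphatase of endothelial junctions, differed by -0.83 (adjusted p 0.0201) and Glp1r, the receptor of glucagon-like peptide, by -0.54 (adjusted p 0.0265). Lpl, the lipoprotein lipase that acts on the capillary surface, read 11.28, 11.79 and 11.90 in saline and 12.79, 12.61 and 12.51 after bleomycin (0.98, adjusted p 0.0179). Lpl is also made by macrophages. Glp1r passed in none of the 6 fits with an array left out (0.0629 to 0.0752), and Ptprb only without saline C (0.0129) or bleomycin E (0.0376). Lpl was no longer called without bleomycin F (adjusted p of 0.0506). The second Lpl probe set was also higher with all arrays, without overlap (1.90, adjusted p 0.000409). The count of general capillary genes that rose was 2 when probe sets were averaged or the most variable one was read.

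Venous genes showed no common direction. Of 13 measured, 2 rose and 0 fell, and the median was -0.00, with 6 differences above 0 and 7 below. The list includes the 4 venule members, and all 4 were above 0. Of the other venous genes only Bst1 and Slc6a2 (0.06) were above 0. Ackr1 was 1 of the 2 that rose, and the other was Bst1, an enzyme that makes cyclic ADP-ribose and is also found on myeloid cells. Bst1 read 6.81, 7.09 and 7.38 in saline and 9.18, 8.73 and 8.69 after bleomycin, 3.43-fold higher (1.78, SE 0.18, adjusted p 0.00211). Its second probe set was also higher (0.97, adjusted p 0.0478). The count of 2 became 1 without saline A, B, C or bleomycin F, because of Ackr1; Bst1 passed in all 6 fits with an array left out. Among the genes that did not pass, Nr2f2, the transcription factor that specifies veins, differed by -0.43 (adjusted p 0.187), and E-selectin, Sele, read 5.05 in saline and 4.94 after bleomycin (adjusted p 0.588).

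Macrophage genes were higher on balance. Of 12, 9 rose and 0 fell, with a median of 1.53, led by complement genes C1qb (3.42, adjusted p 0.000502) and C1qc (2.74, adjusted p 0.000409), Gpnmb (3.10, adjusted p 0.000787) and Cd68 (2.68, adjusted p 0.00132). The summed macrophage level was 12.75 to 13.05 in saline and 14.25 to 14.34 after bleomycin. The part of macrophage RNA in the Bst1, Lpl and Ackr1 values was not tested. Fibroblast and mesothelial genes, some of which share Vcam1, went both ways, with 4 of 12 higher and 1 lower, Tcf21 (-0.80, adjusted p 0.0302). The collagen genes and Lum were the 4 that rose. Col1a1 differed by 2.10 (adjusted p 0.0164), Lum by 1.24 (adjusted p 0.0225), Col3a1 by 1.12 (adjusted p 0.0152) and Col1a2 by 1.00 (adjusted p 0.0174). The summed level of all 12 fibroblast and mesothelial genes was 13.83 to 14.25 in saline and 14.41 to 14.86 after bleomycin. The part of fibroblast and mesothelial RNA in the Vcam1 values was not tested. Of the 4 genes that rose, 0 passed without bleomycin F, 1 without saline A and 2 without saline B.

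**Figure D4:**
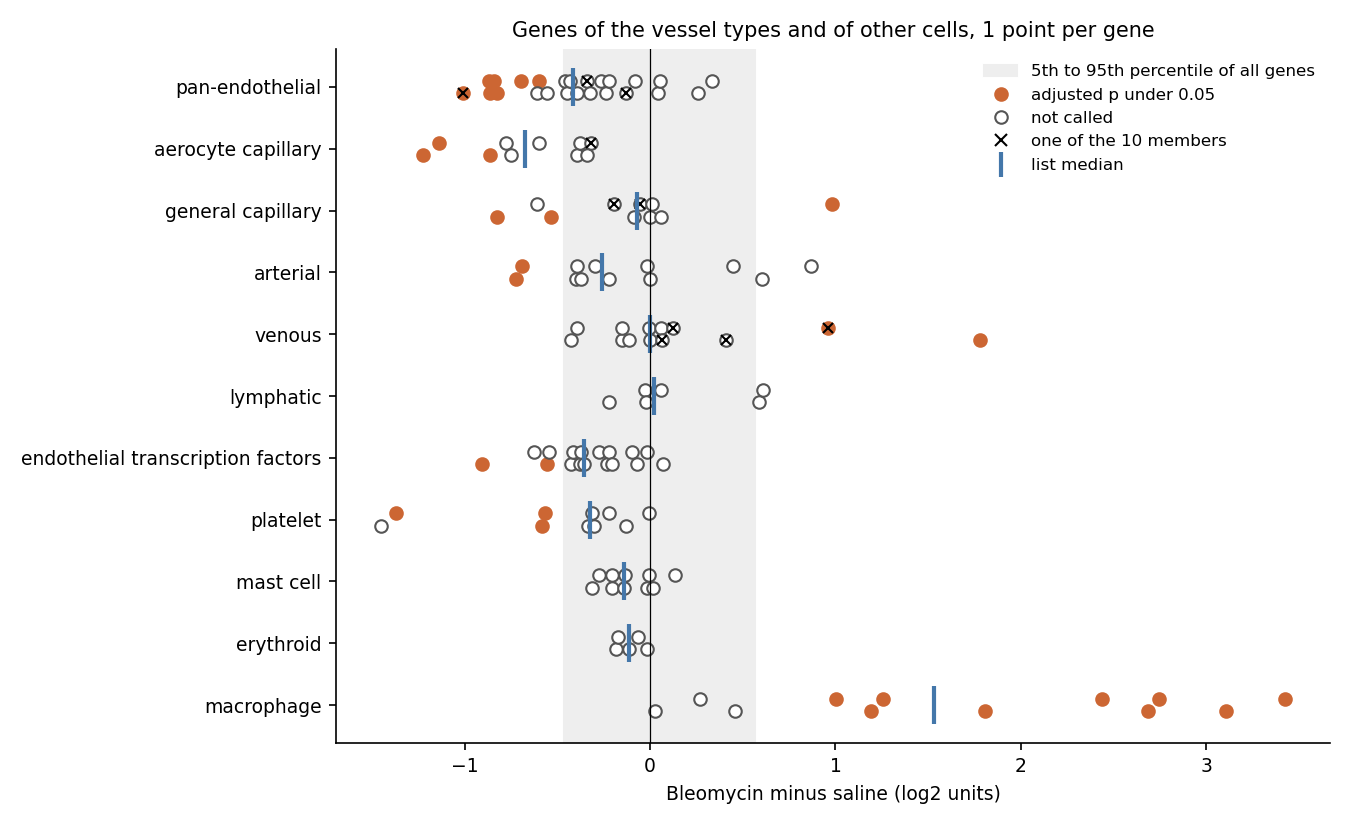
Bleomycin minus saline in log2 units, a point per gene, for vessel types, endothelial transcription factors and other cells; filled points passed an adjusted p of 0.05, crosses are members, blue ticks are list medians and the band spans the 5th to 95th percentile of all genes. Aerocyte genes lie wholly below 0, venous genes lie around 0 with Ackr1 and Bst1 apart, and macrophage genes lie above 0.

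Arterial and lymphatic genes gave few calls. Of 12 arterial genes 2 fell and 0 rose, with a median of -0.26. These were Efnb2, the ephrin of arteries (-0.72, adjusted p 0.0468), and Notch4 (-0.69, adjusted p 0.0304). At an unadjusted p under 0.05 in limma, 4 arterial genes were lower and 3 higher. The 3 higher were Gja4 (0.87, adjusted p 0.0857), Fbln5 (0.61, adjusted p 0.0621) and Dkk2 (0.45, adjusted p 0.102), each without overlap between groups. Efnb2 passed in none of the fits with an array left out and Notch4 only without saline B. With array weights 1 arterial gene was called lower and 2 higher. Cxcl12, in both the arterial and the general capillary list, did not change by its brightest probe set (0.00, adjusted p 0.998). Its other probe set was higher and passed (1.40, adjusted p 0.00567). Of 6 lymphatic genes 0 passed in limma and 1 was higher at an unadjusted p under 0.05. Reln, a secreted protein of lymphatic endothelium, had the largest difference (0.61, adjusted p 0.340). Reln passed without bleomycin E (1.04, adjusted p 0.0341).

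Of 17 endothelial transcription factors, 2 fell and 0 rose, with a median of -0.36. A difference below 0 was seen for 16 of them, against 7060 of 12393 over all genes. Klf2, the flow-responsive factor that restrains adhesion gene expression, read 11.70, 11.58 and 11.24 in saline and 10.57, 10.78 and 10.46 after bleomycin (-0.91, SE 0.15, 1.88-fold lower, adjusted p 0.0146). Gata2, which supports Kit and endothelial genes, read 9.98, 9.82 and 9.86 against 9.23, 9.37 and 9.38 (-0.56, SE 0.11, adjusted p 0.0252). Groups did not overlap for either. The Klf2 call was lost without saline A (adjusted p of 0.0633) and without bleomycin F (0.0619), and Gata2 passed in none of the 6 fits with an array left out (0.0513 to 0.0769).

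Of 14 adhesion ligands of vessels, which include Selp, Vcam1 and Pecam1, 0 rose in limma and 1 fell, and 0 were higher at an unadjusted p under 0.05. This was Alcam, a partner of CD6 on T cells (-0.66, adjusted p 0.0430), which passed with no array left out other than bleomycin E, and not with its probe sets averaged (0.124). Icam1 differed by 0.19 (adjusted p 0.329). Of 10 counter-receptors on leukocytes 3 rose, 0 fell and 7 did not pass, with a median of 0.43. Itgax rose by 1.81 (adjusted p 0.000429), Itgb2, the common chain of the leukocyte integrins, by 1.67 (0.00379) and Itgam by 0.81 (0.0304). Itgam did not pass without saline A, saline B, bleomycin D or bleomycin F (0.0711 to 0.0993), which left 2 of the 10. Itgax is also counted among the macrophage genes. Selplg, the ligand of P-selectin, differed by 0.61 (adjusted p 0.0913) and Itga4, a partner of Vcam1, by -0.08 (adjusted p 0.826), and neither passed. Itgb1, in the same list, did not pass by its brightest probe set (0.03, adjusted p 0.940). Another of its probe sets was lower and passed (-1.10, adjusted p 0.0285). Cd44 did not pass by its brightest probe set either (0.71, adjusted p 0.0512). The other Cd44 probe set was higher and passed (1.16, adjusted p 0.00214).

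Of 11 genes of the Weibel-Palade body and its cargo, 0 passed in limma, and 1 was higher and 1 lower at an unadjusted p under 0.05. The median was 0.03. Plat, the tissue plasminogen activator stored there, had the largest difference (0.52, adjusted p 0.0768) and passed without bleomycin E (0.65, adjusted p 0.0385). Of 15 measured inducers of venular adhesion genes and their receptors, 1 rose and 0 fell. Tnfrsf1b, a receptor of tumour necrosis factor, read 7.24, 7.57 and 7.72 in saline and 8.98, 8.52 and 8.43 after bleomycin (1.14, SE 0.18, adjusted p 0.0123, and 0.0581 without saline A). Its second probe set overlapped between groups and did not pass (0.16, adjusted p 0.542). The cytokines Tnf (0.21, adjusted p 0.411) and Il1b (0.62, adjusted p 0.277) did not pass.

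Lung epithelial genes and ribosomal protein genes give the background for these shifts. Of 10 lung genes 1 fell, Hopx (-0.44, adjusted p 0.0466), which passed in none of the fits with an array left out, and the median was -0.20. Of 18 ribosomal protein genes 0 passed in limma, 0 had an unadjusted p under 0.05, and the median was 0.04.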

How the data were processed

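Total RNA of 6 lungs was hybridised to Affymetrix MOE430A arrays. Each deposited value is the log2 expression of a probe set, which the authors made with RMA after quantiles normalization, according to the design text and, for RMA, the submitters' processing notes. The RMA version is not given in the sources used here. Values reach 14.42, above the natural log of the largest 16-bit scanner reading (11.1), so they were taken as log2. No scanner file or detection call was used, so dim and saturated probe sets were not marked, and scan dates were not examined. Arrays have no read depth, and their number limits the precision.

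Of 22690 probe sets, 64 controls were left out and 22626 tested. GEO's platform annotation gave 20380 of them 1 gene symbol, 691 several and 1555 none; only those with 1 symbol were named. By Entrez ID, 20351 matched the RefSeq table of GRCm38.p6, used for names and promoters only. Each gene was represented by its probe set of highest mean across the 6 arrays, and 4956 genes had several.

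The comparison used limma 3.58.1 in R 4.3.3 (lmFit and eBayes on 2 groups without covariates), with Benjamini-Hochberg adjustment over all 22626 probe sets and a threshold of 0.05. Every adjusted p printed is limma's. Each array is a separate mouse. A fold is the power of 2 of the log2 difference. The fit was tested on simulated data. The letters A to F name arrays and pair none. Plots came from matplotlib 3.10.9 in Python 3.11.15.

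The members and lists were chosen with earlier results of these data known, so lists are described by counts and medians. Counts at an unadjusted p under 0.05 in limma have no count over all genes beside them. Named were all members, up to 4 called genes with the largest difference from each list (where none was called, the gene with the largest), Kitl, Xist and Eif2s3y. Chosen after their values were seen were Flt1, Adgrl4, Cd34, Emcn, Nr2f2, Sele, Icam1, Selplg, Itga4, Tcf21, Tnf, Il1b, Sftpc, Scgb1a1, Grb2, Gab2 and Ptpn6. The same holds for Hdc, Alas2, Slc6a2, Itgb1, Cxcl12, Gja4, Fbln5, Dkk2, Cd44, Eng and Gp1bb. Alternatives were filters on dim probe sets, the variance prior, array weights, scaling, the probe set per gene, the threshold and leaving out each array; the gap with means, and without Ackr1, and the share of all genes that separate on the relative scale were added after seeing the data.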

Additional observations from a re-analysis of the deposited data

How the results depend on the processing

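Probe sets called numbered 1072 with all arrays and 284 to 901 with an array left out, genes higher 458 against 163 to 385, and genes lower 236 against 22 to 165, the lowest of each without saline A. Of the members, 0 to 1 were then called higher and 0 to 1 lower. At an adjusted p of 0.01, 143 genes were higher and 20 lower, with 0 members higher and 0 lower. At 0.1 the counts were 768 and 511. Clec14a and Ackr1 kept their direction under all alternatives run, between -1.26 and -0.87 and between 0.74 and 1.09, and both passed under all filters, priors, weights, scalings and choices of probe set. The differences of 4 members, none called in any fit, changed sign. Pecam1 ranged from -0.29 to 0.0563 with an array left out, Kit from -0.30 to 0.10, Vwf from -0.0122 to 0.17 and Vcam1 from -0.0481 to 0.26. Kit was also 0.0897 with array weights and 0.0571 as the mean of its probe sets, and Vwf was -0.0173 with quantile normalization repeated. The causes of these sign changes were not tested. The mean gap between venule and capillary genes after bleomycin lay between 0.34 and 0.65 over its alternatives. Centring on ribosomal protein genes moved the median of all genes by -0.05 and left Glp1r, Gata2, Nrgn, Efnb2 and Hopx uncalled. No paired analysis was possible because the labels give each array its own letter. Dim probe sets limit what can be said of Sele and of the mast cell and erythroid genes, since no detection calls are used here.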
